A study of Rattus norvegicus with 12 samples.

Results

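The extracellular matrix genes described here are 57 listed genes for collagens, basement membrane proteins, elastic fibre proteins, small leucine-rich proteoglycans and the enzymes that modify and crosslink collagen. A gene entered when the annotation of the array gave it a probe set with exactly 1 gene symbol, which left 45 genes of 14506 in all. The rule uses no measured value, but the genes were listed with earlier results of these data known. Their shares set beside those of all genes are therefore descriptive. The other 12 listed genes (Col4a2, Lama2, Lama4, Lamb1, Nid1, Hspg2, Col15a1, Col18a1, Col6a1, Col6a2, Col6a3 and Col8a2) were not analysed here. The basement membrane group is therefore the least complete, with 5 of 13 genes.

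The source was aortic vascular smooth muscle cells of Sprague-Dawley rats in culture, labelled differentiated. They were grown in 10% fetal bovine serum and kept without serum for 48 h, and this holds for all groups. Affymetrix Rat Gene 1.0 ST arrays measured 3 samples in each of 4 groups: untreated cells, and cells given 100 nM angiotensin II (Ang II) for 6 h, 12 h or 24 h. The titles and the study design give these times, whereas the treatment protocol names 1, 3 or 24 h. The samples of a group are labelled biological replicates, and nothing says that they came from separate cultures or animals, so p-values measure the spread between arrays. All Ang II times were set against the same 3 untreated arrays, and untreated cells of matching later times were not analysed here, so Ang II and time in culture cannot be told apart.

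Smooth muscle cells make most of the matrix of the arterial wall. Fibrillar collagens are secreted as procollagens, trimmed and assembled into fibrils, while lysyl hydroxylases and lysyl oxidases prepare and form the crosslinks between them. Small leucine-rich proteoglycans sit on the fibrils and control how they grow, laminins and nidogens build the basement membrane around each cell, and elastin laid on fibrillin microfibrils gives the aorta its recoil. Ang II, which acts on these cells mainly through the AT1 receptor, is known as a stimulus of matrix production in vessels.

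Each probe set has 1 deposited log2 value in each array. A difference of 1 on this scale is a doubling. A gene was called higher or lower when the limma test, fitted to all 14506 genes and 12 arrays, gave an adjusted p under 0.05 (Benjamini-Hochberg over all genes). Levels of different genes are not compared, because each probe set has its own response. Array medians lay between 7.22 and 7.32, and arrays correlated at 0.9975 to 0.9984 across genes within groups and at 0.9868 to 0.9941 between groups; this is across genes, which are no independent replicates. The mean log2 value over 11 measured smooth muscle markers was 12.40 to 12.43 in the untreated arrays, 12.46 to 12.50 at 6 h, 12.55 to 12.58 at 12 h and 12.78 to 12.79 at 24 h. The mean over 9 leukocyte markers stayed between 5.79 and 5.97 in all 12 arrays, and that over 11 endothelial markers between 6.48 and 6.68. Single endothelial markers moved more than this mean: 3 were higher and 1 lower at 24 h, among them Erg with 0.68 and Tek with −0.91 on the log2 scale, and 1 was higher and 2 lower at 6 h. The files hold no detection calls, so no marker can be said to be absent.

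The matrix genes did not move together. At 6 h 11 of the 45 were higher and 13 lower than in untreated cells, where 35.8% of all genes were called (18.6% higher and 17.2% lower). At 12 h 11 were higher and 14 lower, against 26.6% of all genes (13.3% in each direction). At 24 h 12 were higher and 14 lower, against 30% of all genes (15.3% higher and 14.7% lower). The share of matrix genes called was thus 53.3%, 55.6% and 57.8% at 6, 12 and 24 h, and their median log2 difference was −0.01, −0.06 and −0.01, beside 0.01, 0.005 and 0.05 over all genes. The F test over the 4 groups called 31 of the 45 genes, against 51.5% of all genes. Most changes were small: 1 gene passed with at least 1.5-fold at 6 h, 2 at 12 h and 6 at 24 h, where 6.87%, 3.7% and 3.87% of all genes did. The matrix genes lie mostly among the brighter probe sets and vary less between arrays, with a median standard error of 0.0425 for a log2 difference, against 0.0667 over all genes. In a fit of the 7253 genes at or above the median level, which holds 42 of the 45, 64.3%, 69% and 66.7% of the matrix genes were called at 6, 12 and 24 h, against 65.2%, 52.2% and 53.4% of all these genes. At 6 h the share was thus no higher than that of genes of such levels.

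Of the 45 genes, 30 were called at 1 or more times (66.7%, against 51.6% of all genes) and 19 were called at all 3 times in 1 direction (42.2%, against 10.6%). The matrix genes lie mostly among the brighter probe sets, and these shares were not computed for genes of such levels. The 10 genes higher at every time were Lama5, Lamc1, Nid2, Col5a1, Col12a1, Fbln2, Efemp2, Prelp, Loxl2 and Plod3. The 9 genes lower at every time were Col3a1, Col11a1, Col14a1, Dcn, Lum, Fmod, Ogn, Plod2 and Pcolce. Calls of Lamc1, Col5a1 and Plod2 at 24 h, Efemp2 at 12 h, and Ogn, Fmod and Pcolce at 6 h were lost when certain single arrays were left out. The 3 comparisons share the untreated arrays, so a shift in those would appear at every time. Among the 30 genes, the largest difference from untreated cells fell at 24 h in 13, of which 11 were lower, at 6 h in 10 and at 12 h in 7. That is 33.3% at 6 h, 23.3% at 12 h and 43.3% at 24 h, against 47.6%, 19% and 33.4% of all genes called at 1 or more times.

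**Figure D1:**
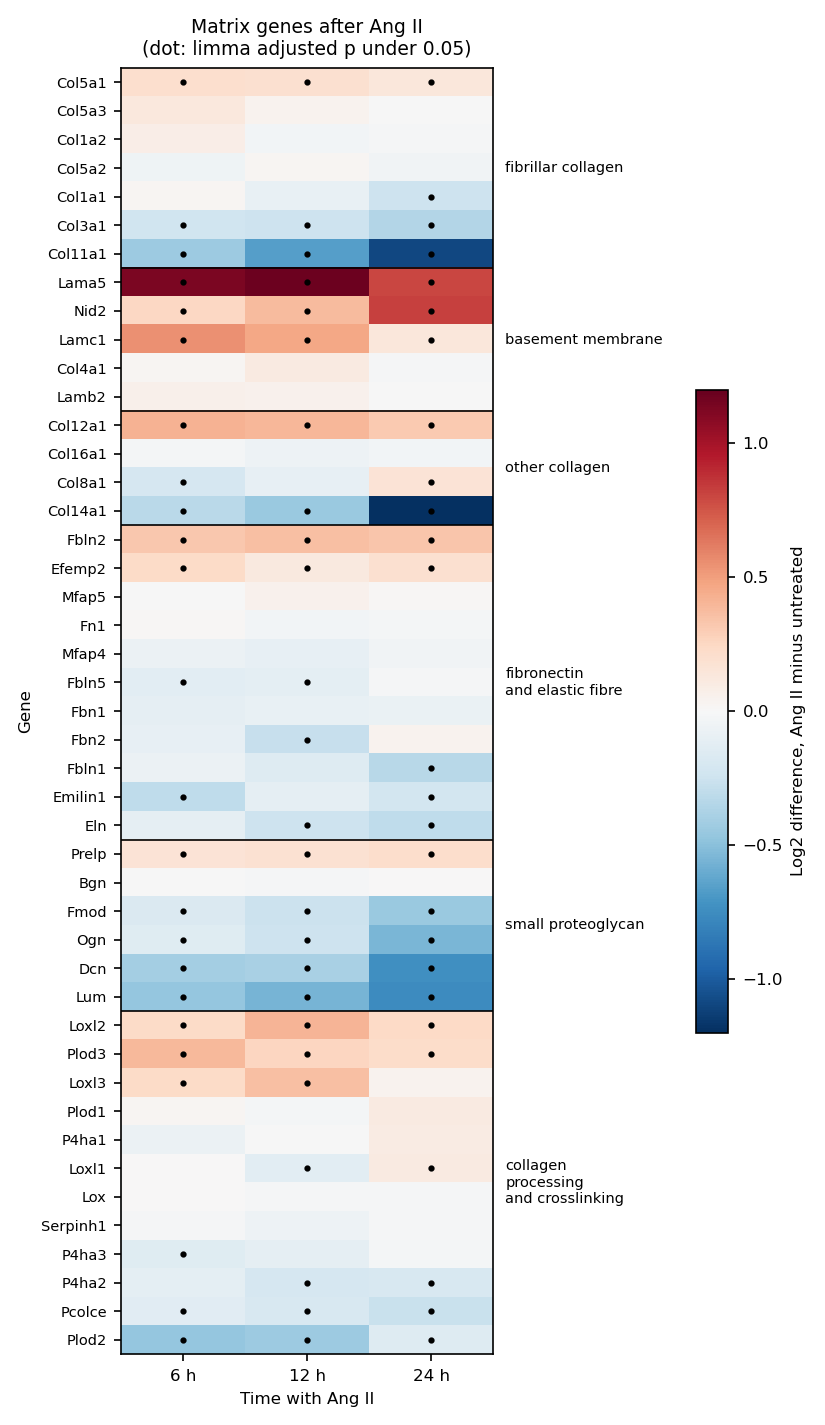
Log2 difference between Ang II and untreated cells (colour) for 45 matrix genes (rows, grouped by role) at 6, 12 and 24 h (columns), with a dot where the limma adjusted p is under 0.05. Lama5 is the deepest red at 6 h and 12 h, Col14a1 and Col11a1 are the deepest blue at 24 h, and 15 rows carry no dot.

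Basement membrane genes gave the largest rises. Of the 5 measured, 3 were higher and 0 lower at each of the 3 times. Over all genes 18.6%, 13.3% and 15.3% were higher at 6, 12 and 24 h. Of the genes at or above the median level, 65.2%, 52.2% and 53.4% were called in either direction. Lama5, the α5 chain found in several laminins, rose 2.18-fold at 6 h, 2.26-fold at 12 h and 1.74-fold at 24 h. Lama5 read 9.28, 9.29 and 9.25 in the untreated arrays, 10.43, 10.35 and 10.43 at 6 h, 10.45, 10.43 and 10.47 at 12 h and 10.12, 10.06 and 10.05 at 24 h. The untreated arrays lie below all 9 Ang II arrays, and the 24 h arrays lie between them and the earlier times. The log2 difference from untreated cells was 1.13 ± 0.04 at 6 h (SE, n = 3 per group, limma adjusted p = 1.79e-09), 1.18 ± 0.04 at 12 h (adjusted p = 2.65e-09) and 0.80 ± 0.04 at 24 h (adjusted p = 6.2e-08). The fall between 12 h and 24 h passed too, at −0.38 ± 0.04 (adjusted p = 3.73e-05).

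Lamc1 encodes the γ1 chain, which most laminin trimers share. Lamc1 read 11.72, 11.73 and 11.80 in the untreated arrays, 12.27, 12.30 and 12.33 at 6 h, 12.19, 12.21 and 12.23 at 12 h and 11.93, 11.89 and 11.83 at 24 h. The 24 h arrays were the lowest of the Ang II arrays and close to the untreated ones. The difference was 0.55 ± 0.04 at 6 h (limma adjusted p = 8.14e-07) and 0.46 ± 0.04 at 12 h (adjusted p = 6.63e-06). At 24 h it was 0.13 ± 0.04 (adjusted p = 0.0307), and leaving out 1 array ended this call: the adjusted p was 0.0978 without untreated replicate 1, 0.091 without untreated replicate 2, 0.0904 without 24 h replicate 1 and 0.0706 without 24 h replicate 2. The log2 difference of Lamc1 between 24 h and 12 h was −0.33 ± 0.04 (adjusted p = 0.00015).

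Nid2, a nidogen that links the laminin and collagen IV networks, took a different course. Nid2 read 10.70, 10.79 and 10.75 in the untreated arrays, 11.03, 10.97 and 10.99 at 6 h, 11.07, 11.17 and 11.16 at 12 h and 11.62, 11.55 and 11.54 at 24 h. Each time lies wholly above the one before it. Its log2 difference from untreated cells was 0.25 ± 0.05 at 6 h, 0.38 ± 0.05 at 12 h and 0.82 ± 0.05 at 24 h, a 1.77-fold rise (limma adjusted p = 1.28e-07). From 12 h to 24 h it gained 0.44 ± 0.05 (adjusted p = 2.88e-05). At 24 h, then, Nid2 stood higher than at 12 h while Lama5 and Lamc1 stood lower, and all of these differences passed. The remaining 2 genes of the group were not called at any time. Col4a1, a chain of the sheet-forming collagen IV, had differences of 0.02, 0.11 and −0.01 at 6, 12 and 24 h, with a 95% interval of −0.14 to 0.12 at 24 h. Lamb2, the laminin β2 chain, had 0.06, 0.05 and −0.00, with a 95% interval of −0.10 to 0.10 at 24 h.

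**Figure D2:**
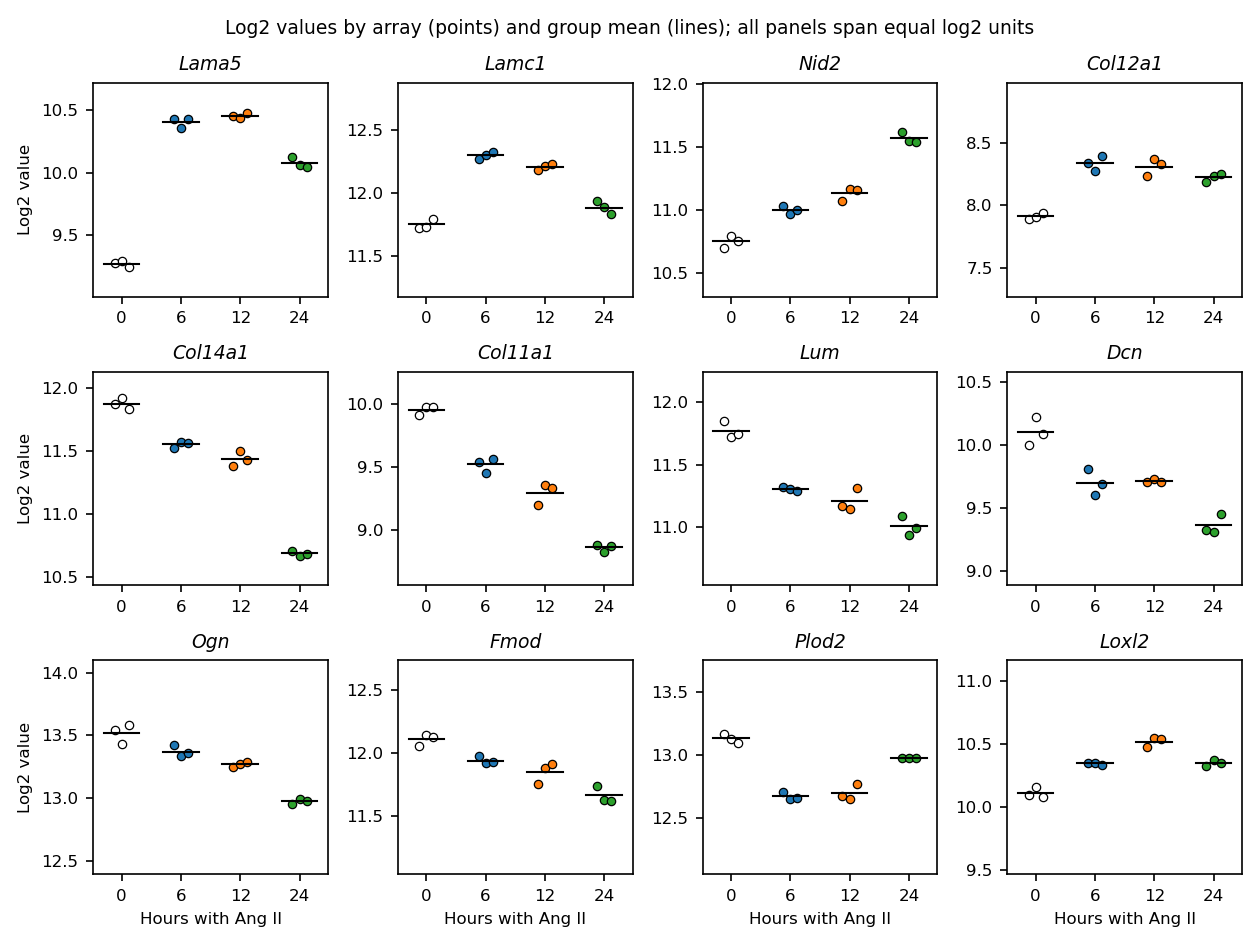
Deposited log2 values of 12 matrix genes in every array (points) by hours with Ang II (0 is untreated), with the mean of each group of 3 as a line; each panel spans the same number of log2 units. Lama5 and Lamc1 are high at 6 h and 12 h and lower at 24 h, Nid2 climbs to 24 h, and Col14a1, Col11a1, Lum, Dcn, Ogn and Fmod have their lowest arrays at 24 h.

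Promoters of some of the genes with large changes are shown to describe their sequence. Nid2, Col14a1 and Dcn, which also changed strongly, had no matched promoter sequence. RefSeq promoter sequences (build GRCr8) matched 29 of the 45 genes, and the 150 bases before the annotated start were searched on both strands for 4 motifs: the TATA box (TATAAA), the CCAAT box (CCAAT), the GC box (GGGCGG) and the AP-1 site (TGANTCA). Neighbouring matches of the GC box can overlap each other. In the sequences below, capitals mark any of these motifs on either strand, and positions count back from the base before the start, which is −1. The windows of the 2 laminin genes that rose, Lama5 (chr3:187695975-187696124, minus strand) and Lamc1 (chr13:68051987-68052136, minus strand), are these:
Lama5: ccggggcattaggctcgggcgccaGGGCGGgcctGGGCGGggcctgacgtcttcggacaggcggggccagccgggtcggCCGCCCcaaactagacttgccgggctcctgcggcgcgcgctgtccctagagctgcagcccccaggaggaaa
Lamc1: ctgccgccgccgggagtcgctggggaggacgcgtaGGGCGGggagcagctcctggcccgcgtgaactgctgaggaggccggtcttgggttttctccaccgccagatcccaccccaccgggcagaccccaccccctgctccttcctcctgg

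Lama5 holds 3 GC boxes and Lamc1 holds 1, at −115 to −110, and neither holds the other motifs. A GC box was present in 18 of the 29 windows (62.1%), against 27.8% of all 27457 windows of the same length in the promoter set. That set was not limited to the 14506 measured genes or to genes of like level. The 29 windows are also richer in G and C, with a median of 69.3% against 53.3%. CCAAT was found in 2 of 29 (6.9%, against 23.7%), and TATAAA and TGANTCA in 0 of 29, against 8.16% and 3.61%. Such a match is a description of the letters, and these windows hold only the bases next to the annotated start.

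Fibrillar collagens, which form the load-bearing fibrils, were lower where they moved furthest. Of 7 genes, 1 was higher and 2 lower at 6 h and at 12 h, and 1 was higher and 3 lower at 24 h. That is 42.9%, 42.9% and 57.1% called at 6, 12 and 24 h, beside 35.8%, 26.6% and 30% of all genes. Col11a1, a chain of collagen XI that sits in the core of fibrils, fell furthest. Col11a1 read 9.91, 9.97 and 9.97 in the untreated arrays, 9.54, 9.45 and 9.56 at 6 h, 9.19, 9.35 and 9.33 at 12 h and 8.88, 8.82 and 8.87 at 24 h. The 4 groups do not overlap and each time lies below the one before. Its log2 difference was −0.44 ± 0.05 at 6 h, −0.66 ± 0.05 at 12 h and −1.09 ± 0.05 at 24 h, a 2.13-fold fall (limma adjusted p = 3.92e-08). The steps between neighbouring times passed as well, at −0.23 ± 0.05 from 6 h to 12 h (adjusted p = 0.00601) and −0.43 ± 0.05 from 12 h to 24 h (adjusted p = 8.39e-05). Its promoter window (chr2:204508986-204509135, plus strand) is shown because it holds 3 GC boxes and 1 of the 2 CCAAT boxes found, at −77 to −73:
Col11a1: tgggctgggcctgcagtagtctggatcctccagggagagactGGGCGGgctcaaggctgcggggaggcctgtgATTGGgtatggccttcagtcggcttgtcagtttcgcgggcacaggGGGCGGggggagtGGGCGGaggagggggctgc

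Col3a1, the homotrimeric collagen III of distensible tissues such as the artery, fell at each time: its difference was −0.24 ± 0.04 at 6 h, −0.25 ± 0.04 at 12 h and −0.35 ± 0.04 at 24 h (limma adjusted p = 2.36e-05). It read 11.49, 11.46 and 11.43 at 24 h, against 11.81, 11.81 and 11.81 in the untreated arrays. The chains of collagen I, the main fibrillar collagen, did not show the same calls. Col1a1 fell by 0.25 on the log2 scale at 24 h (SE 0.04, adjusted p = 0.000232), with 13.04, 13.08 and 13.04 at 24 h against 13.32, 13.32 and 13.28 in untreated cells. Col1a2 was not called against untreated cells at any time, with −0.01 at 24 h and a 95% interval of −0.09 to 0.07. The difference between these chains was not tested. Col5a1, the main chain of collagen V, which starts fibrils, rose at all 3 times, by 0.20 ± 0.04, 0.20 ± 0.04 and 0.14 ± 0.04 at 6, 12 and 24 h. Its adjusted p at 24 h was 0.0263, and it was 0.0817 without untreated replicate 1, 0.0791 without untreated replicate 3 and 0.0878 without 24 h replicate 2. Its partner chains Col5a2 and Col5a3 were not called at any time, with differences of −0.05 and −0.00 at 24 h.

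Among the other collagens the 4 measured genes took 4 different courses. Col14a1 and Col12a1 encode the related fibril-associated collagens XIV and XII, which lie on the surface of collagen I fibrils, and they moved in opposite directions. Col14a1 read 11.87, 11.93 and 11.84 in the untreated arrays, 11.53, 11.57 and 11.57 at 6 h, 11.38, 11.50 and 11.43 at 12 h and 10.71, 10.67 and 10.68 at 24 h. The 24 h arrays stand apart from all others. The log2 difference was −0.32 ± 0.04 at 6 h, −0.44 ± 0.04 at 12 h and −1.19 ± 0.04 at 24 h (limma adjusted p = 6.84e-09), a 2.28-fold fall and the largest of the 45 genes at that time. The step from 12 h to 24 h was −0.75 ± 0.04 (adjusted p = 3.98e-07).

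Col12a1 rose 1.34-fold at 6 h, 1.31-fold at 12 h and 1.24-fold at 24 h (limma adjusted p = 2.51e-05, 7.17e-05 and 0.000442). Col12a1 read 7.89, 7.91 and 7.94 in the untreated arrays, 8.34, 8.27 and 8.39 at 6 h, 8.23, 8.37 and 8.33 at 12 h and 8.18, 8.23 and 8.25 at 24 h. All Ang II arrays lie above all untreated arrays, the 12 h arrays overlap those of 6 h and 24 h, and the 24 h arrays lie below those of 6 h. Col8a1, a chain of the short-chain collagen VIII that smooth muscle cells make in remodelling vessels, was below untreated cells at 6 h and above them at 24 h. Col8a1 read 12.00, 12.09 and 12.07 in the untreated arrays, 11.90, 11.80 and 11.86 at 6 h, 11.88, 11.98 and 11.99 at 12 h and 12.24, 12.19 and 12.22 at 24 h. The difference was −0.20 ± 0.05 at 6 h (adjusted p = 0.00548), −0.10 ± 0.05 at 12 h (adjusted p = 0.142) and 0.16 ± 0.05 at 24 h (adjusted p = 0.0204). The 24 h call is weak, with an adjusted p of 0.0831 without untreated replicate 1, 0.0525 and 0.054 without 24 h replicate 1 or 3, and 0.0541 after a further quantile normalization, whereas the gain from 6 h to 24 h was 0.36 ± 0.05 (adjusted p = 6.78e-05). Col16a1, another fibril-associated collagen, was not called at any time (−0.03 at 24 h).

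The small leucine-rich proteoglycans fell as a majority. Of 6 genes, 1 was higher and 4 lower at each of the 3 times, and their median log2 difference was −0.16 at 6 h, −0.26 at 12 h and −0.50 at 24 h, where the median over all genes was 0.05. Over all genes 17.2%, 13.3% and 14.7% were lower at 6, 12 and 24 h. Lum encodes lumican, which limits the thickness of collagen fibrils. Lum read 11.85, 11.72 and 11.74 in the untreated arrays, 11.32, 11.30 and 11.29 at 6 h, 11.17, 11.15 and 11.31 at 12 h and 11.09, 10.94 and 11.00 at 24 h. Untreated arrays lie above all Ang II arrays. The log2 difference was −0.46 ± 0.06, −0.56 ± 0.06 and −0.76 ± 0.06 at 6, 12 and 24 h (limma adjusted p = 4.26e-05, 1.66e-05 and 1.41e-06).

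Dcn encodes decorin, which binds collagen I and also TGF-beta. Dcn read 10.00, 10.23 and 10.09 in the untreated arrays, 9.81, 9.60 and 9.69 at 6 h, 9.70, 9.73 and 9.71 at 12 h and 9.33, 9.31 and 9.45 at 24 h. The 24 h arrays are the lowest, and 6 h and 12 h overlap. The difference was −0.40 ± 0.07 at 6 h, −0.39 ± 0.07 at 12 h and −0.74 ± 0.07 at 24 h (limma adjusted p = 6.86e-06), and the step from 12 h to 24 h was −0.35 ± 0.07 (adjusted p = 0.00254). Ogn, the gene of osteoglycin (mimecan), read 12.95, 12.99 and 12.98 at 24 h against 13.54, 13.43 and 13.58 in untreated cells. Its difference was −0.15 ± 0.05 at 6 h (adjusted p = 0.0264), −0.25 ± 0.05 at 12 h and −0.54 ± 0.05 at 24 h (adjusted p = 3.87e-06). The 6 h call of Ogn was lost without untreated replicate 1 (adjusted p = 0.0843) or 3 (0.114) and without 6 h replicate 2 (0.0903) or 3 (0.0781), and after median centring (0.0664).

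Fmod encodes fibromodulin, which guides collagen crosslinking, and read 11.74, 11.63 and 11.62 at 24 h against 12.06, 12.15 and 12.13 in untreated cells. Its difference was −0.17 ± 0.05, −0.26 ± 0.05 and −0.45 ± 0.05 at 6, 12 and 24 h (limma adjusted p = 0.0251, 0.003 and 5.4e-05). Its 6 h call was lost without untreated replicate 2 or 3 (adjusted p = 0.0862 and 0.0749) and without 6 h replicate 2 or 3 (0.0731 and 0.0686). Prelp, which anchors basement membranes to connective tissue, went the other way: it read 12.78, 12.76 and 12.76 at 24 h against 12.53, 12.57 and 12.56 in untreated cells, and rose by 0.16 ± 0.04, 0.18 ± 0.04 and 0.21 ± 0.04 at 6, 12 and 24 h (adjusted p at 24 h = 0.000722). Bgn, the gene of biglycan and the closest relative of decorin, was not called, with 14.10, 14.17 and 14.18 at 24 h against 14.16, 14.14 and 14.14 in untreated cells and a 95% interval of −0.08 to 0.09 for the difference. The highest value of the whole table is 14.6, so Bgn lies near the top of the scale.

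Several small proteoglycan genes lie side by side in the genome. In the RefSeq annotation of GRCr8, with no protein-coding gene between neighbours, Dcn is followed by Lum, Kera and Epyc, Ogn by Omd and Aspn, and Prelp by Fmod. Kera, Epyc, Omd and Aspn encode the related proteins keratocan, epiphycan, osteomodulin and asporin and come from a further list of matrix genes described later. Epyc fell by 1.25 ± 0.10 on the log2 scale at 24 h, Omd by 1.89 ± 0.09 and Aspn by 0.88 ± 0.07, and each was lower at 6 h and 12 h as well (limma adjusted p between 4.09e-08 and 7.46e-05). Omd read 7.11, 6.86 and 7.15 at 24 h, against 8.97, 8.78 and 9.03 in the untreated arrays, a 3.7-fold fall. Kera, which lies between Lum and Epyc, was not called at any time (0.15 ± 0.08 at 24 h, adjusted p = 0.206). Kera read between 5.17 and 5.68 in the 12 arrays, below the array medians of 7.22 to 7.32. Without detection calls, no change in Kera cannot be told from no signal. Fmod and Prelp are neighbours with opposite calls at all 3 times.

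The promoter windows of Lum (chr7:34245556-34245705, plus strand), Ogn (chr17:15258996-15259145, minus strand) and Fmod (chr13:48045417-48045566, plus strand), 1 from each of these neighbourhoods, are shown because the genes fell together:
Lum: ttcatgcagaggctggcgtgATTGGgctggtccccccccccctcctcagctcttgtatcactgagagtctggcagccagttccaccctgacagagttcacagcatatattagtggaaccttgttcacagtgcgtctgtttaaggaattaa
Ogn: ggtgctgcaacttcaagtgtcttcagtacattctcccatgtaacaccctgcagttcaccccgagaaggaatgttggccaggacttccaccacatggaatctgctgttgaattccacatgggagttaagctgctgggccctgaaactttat
Fmod: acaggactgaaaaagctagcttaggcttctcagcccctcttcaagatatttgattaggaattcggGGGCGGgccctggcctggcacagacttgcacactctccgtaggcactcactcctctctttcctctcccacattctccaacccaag
Lum holds a CCAAT box at −130 to −126, Fmod a GC box at −85 to −80 and Ogn none of the 4 motifs. Their G and C content of 52%, 49.3% and 53.3% is below the median of 69.3% over the 29 matrix gene windows.

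**Figure D3:**
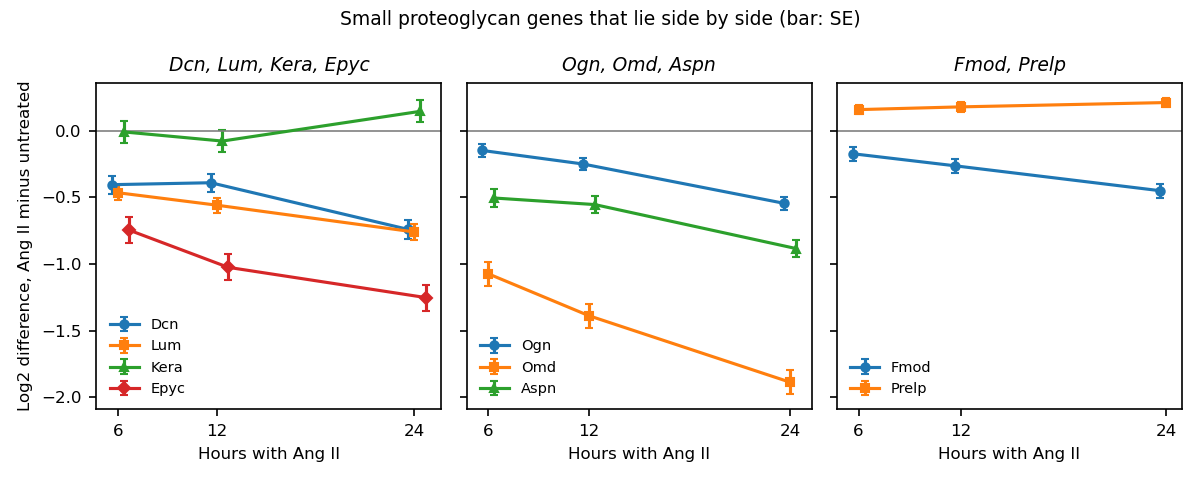
Log2 difference between Ang II and untreated cells (vertical axis, bars are the SE) at 6, 12 and 24 h for 9 small proteoglycan genes, with each panel holding genes of 1 neighbourhood and points moved slightly sideways for legibility. Prelp lies above 0 at every time and Kera lies near 0 at 6 h and 12 h and at 0.15 at 24 h, whereas the other genes lie below 0 at every time, and Omd reaches −1.89 at 24 h. The Kera probe set reads below the array medians in all arrays.

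Some markers of fibroblasts, which also express these proteoglycans, were lower at the same times. Of 8 measured fibroblast markers 0 were higher, and 3, 4 and 4 were lower at 6, 12 and 24 h. That is 37.5%, 50% and 50%, beside 17.2%, 13.3% and 14.7% of all genes called lower and 35.8%, 26.6% and 30% called in all. The mean log2 value of the 8 markers was 7.41 to 7.45 in the untreated arrays, 7.07 to 7.12 at 6 h, 7.02 to 7.08 at 12 h and 7.02 to 7.06 at 24 h. Pdgfra, the PDGF receptor α gene, had the largest fall of the list, with −1.39, −1.24 and −1.15 at these times. Pi16, Cd34, Ly6c and Tcf21 were not called against untreated cells at any time. These genes read 4.08 to 7.11 in the untreated arrays, below the array medians of 7.22 to 7.32. Without detection calls, no change in them cannot be told from no signal. Pdgfra, Scara5, Dpep1 and Pdgfrl, which were lower at 1 or more times, had untreated means of 8.07 to 9.71. Of the 11 smooth muscle markers 4 were higher and 3 lower at 6 h, 5 were higher and 1 lower at 12 h, and 10 were higher and 0 lower at 24 h. In bulk RNA fewer cells of a type and less RNA per cell cannot be told apart, and the part of these shifts in the proteoglycan result was not tested.

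Of the fibronectin and elastic fibre genes, 7 of 11 were called at 1 or more times, against 51.6% of all genes. Of the 11 genes, 2 were higher and 2 lower at 6 h, and 2 were higher and 3 lower at 12 h and again at 24 h. That is 36.4%, 45.5% and 45.5% called at 6, 12 and 24 h, beside 35.8%, 26.6% and 30% of all genes. Fbln2, the gene of fibulin-2, which binds fibronectin, elastin and basement membrane proteins, rose at each time. Fbln2 read 12.32, 12.37 and 12.39 in the untreated arrays, 12.68, 12.69 and 12.70 at 6 h, 12.71, 12.73 and 12.71 at 12 h and 12.70, 12.67 and 12.70 at 24 h. The differences were 0.33 ± 0.04, 0.36 ± 0.04 and 0.33 ± 0.04 at 6, 12 and 24 h (limma adjusted p at 24 h = 2.86e-05). Its arrays did not overlap with the untreated ones at any time. Efemp2 (fibulin-4), which brings lysyl oxidase to elastin, rose by 0.23 ± 0.04 at 6 h, 0.12 ± 0.04 at 12 h and 0.19 ± 0.04 at 24 h. Its 12 h call (adjusted p = 0.0355) was lost after a further quantile normalization (adjusted p = 0.23), and without untreated replicate 1 or 3, 6 h replicate 1 or 3, any 12 h replicate or 24 h replicate 3 (0.0502 to 0.134).

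Eln, the gene of tropoelastin, was lower at 12 h and 24 h. Eln read 13.69, 13.73 and 13.73 in the untreated arrays, 13.64, 13.56 and 13.64 at 6 h, 13.40, 13.46 and 13.53 at 12 h and 13.46, 13.39 and 13.36 at 24 h. The difference was −0.10 ± 0.05 at 6 h (limma adjusted p = 0.126), −0.25 ± 0.05 at 12 h (adjusted p = 0.00192) and −0.31 ± 0.05 at 24 h (adjusted p = 0.000441). Fbln1, the gene of fibulin-1, fell by 1.26-fold at 24 h (−0.33 ± 0.06, adjusted p = 0.0021). Fbn2, a fibrillin of developing tissues, was lower at 12 h alone among the comparisons with untreated cells: Fbn2 read 6.74, 6.82 and 6.72 in the untreated arrays, 6.67, 6.72 and 6.60 at 6 h, 6.45, 6.52 and 6.47 at 12 h and 6.82, 6.81 and 6.77 at 24 h. The 12 h arrays lie below all others, and all 12 arrays of Fbn2 read below the array medians of 7.22 to 7.32. Without detection calls, whether the cells express Fbn2 cannot be said. Its difference was −0.28 ± 0.05 at 12 h (adjusted p = 0.000716), and it regained 0.32 ± 0.05 from 12 h to 24 h (adjusted p = 0.000298).

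Emilin1 encodes a glycoprotein that lies between elastin and microfibrils. Emilin1 read 9.28, 9.48 and 9.34 in the untreated arrays, 9.05, 9.07 and 9.07 at 6 h, 9.12, 9.40 and 9.27 at 12 h and 9.10, 9.15 and 9.19 at 24 h. The 12 h arrays overlap the untreated ones, and the 6 h and 24 h arrays do not. Emilin1 was lower at 6 h (−0.30 ± 0.07, limma adjusted p = 0.00463) and at 24 h (−0.22 ± 0.07, adjusted p = 0.0345). Its 24 h call was lost without untreated replicate 2 or 3, without 24 h replicate 1 or 2, after quantile normalization and after median centring, with adjusted p between 0.0609 and 0.132. Fbln5, needed for elastic fibre assembly, was slightly lower at 6 h (−0.12 ± 0.04) and 12 h (−0.12 ± 0.04), at adjusted p = 0.0199 and 0.0311. Both Fbln5 calls were lost without any 1 untreated array (adjusted p between 0.05 and 0.0842), the 6 h call also without 6 h replicate 1 or 2, and the 12 h call without any 12 h replicate (0.0512 to 0.0964) and after quantile normalization (0.0672). Fn1, Fbn1, Mfap4 and Mfap5 were not called at any time. Fn1, the gene of fibronectin, read 14.03, 14.04 and 14.03 at 24 h against 14.06, 14.03 and 14.07 in untreated cells, with a 95% interval of −0.10 to 0.06. Fbn1, the main fibrillin of adult microfibrils, had −0.11 at 6 h with an adjusted p of 0.0525, just outside the threshold, while Ogn at 0.0264 was the last of the 45 genes inside it.

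The enzymes that modify collagen were divided within families. Of 12 genes, 3 were higher and 3 lower at 6 h, 3 higher and 4 lower at 12 h, and 3 higher and 3 lower at 24 h. That is 50%, 58.3% and 50% called at 6, 12 and 24 h, beside 35.8%, 26.6% and 30% of all genes. Lysyl hydroxylases hydroxylate the lysines from which crosslinks start, and their genes Plod2 and Plod3 moved in opposite directions. Plod2 encodes the enzyme for the telopeptides, the ends of the collagen molecule. Plod2 read 13.17, 13.13 and 13.10 in the untreated arrays, 12.71, 12.65 and 12.65 at 6 h, 12.67, 12.65 and 12.77 at 12 h and 12.98, 12.98 and 12.97 at 24 h. The 24 h arrays lie between the untreated arrays and the earlier times. Its difference was −0.46 ± 0.04 at 6 h (limma adjusted p = 4e-06), −0.43 ± 0.04 at 12 h and −0.16 ± 0.04 at 24 h (adjusted p = 0.0164, 0.0654 without untreated replicate 1 and 0.109 after centring arrays on their median). From 12 h to 24 h it gained 0.28 ± 0.04 (adjusted p = 0.0005).

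The Plod3 enzyme also adds sugars to hydroxylysine. Plod3 read 10.95, 11.06 and 11.01 in the untreated arrays, 11.39, 11.33 and 11.45 at 6 h, 11.24, 11.30 and 11.25 at 12 h and 11.27, 11.20 and 11.21 at 24 h. The untreated arrays lie below all Ang II arrays. Plod3 rose by 0.39 ± 0.05, 0.25 ± 0.05 and 0.22 ± 0.05 at 6, 12 and 24 h (limma adjusted p at 6 h = 4e-05). Plod1, which acts on lysines of the helix, was not called against untreated cells (0.11 at 24 h, adjusted p = 0.0714, the first gene outside the threshold there).

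Lysyl oxidases catalyse the crosslinks of collagen and elastin. Loxl2 rose at all times, with its largest difference at 12 h. Loxl2 read 10.10, 10.15 and 10.08 in the untreated arrays, 10.34, 10.35 and 10.34 at 6 h, 10.47, 10.54 and 10.54 at 12 h and 10.32, 10.37 and 10.35 at 24 h. The 12 h arrays are above all others, and 6 h and 24 h overlap. The difference was 0.23 ± 0.04, 0.41 ± 0.04 and 0.24 ± 0.04 at 6, 12 and 24 h (limma adjusted p at 12 h = 9.92e-06), with a gain of 0.17 ± 0.04 from 6 h to 12 h (adjusted p = 0.00549) and a difference of −0.17 ± 0.04 between 24 h and 12 h (adjusted p = 0.00688). Loxl3 read 10.40, 10.51 and 10.52 at 12 h against 10.06, 10.22 and 10.06 in untreated cells and was higher at 6 h (0.23 ± 0.05) and 12 h (0.36 ± 0.05), while at 24 h its difference was 0.04 ± 0.05 (adjusted p = 0.593).

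Loxl1 is the enzyme most tied to elastic fibres. Loxl1 read 12.70, 12.71 and 12.71 in the untreated arrays, 12.75, 12.69 and 12.71 at 6 h, 12.57, 12.59 and 12.60 at 12 h and 12.81, 12.85 and 12.80 at 24 h. Loxl1 was lower at 12 h (−0.12 ± 0.04, limma adjusted p = 0.0268) and higher at 24 h (0.11 ± 0.04, adjusted p = 0.0397). Leaving out any 1 untreated array ended both of these Loxl1 calls, with adjusted p between 0.063 and 0.0984. So did 12 h replicate 1 or 2 at 12 h, and any 24 h replicate, 6 h replicate 3 or 12 h replicate 2 or 3 at 24 h (0.0503 to 0.113). After a further quantile normalization its 24 h difference was 0.04 (adjusted p = 0.388), and after median centring its 12 h difference was −0.11 (adjusted p = 0.0694), while its gain from 12 h to 24 h was 0.23 ± 0.04 (adjusted p = 0.000606). Lox itself was not called, with 13.72, 13.67 and 13.67 at 24 h against 13.71, 13.68 and 13.71 in untreated cells and a 95% interval of −0.10 to 0.07.

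Prolyl 4-hydroxylases stabilise the collagen helix. P4ha2, an α subunit, was lower at 12 h (−0.20 ± 0.06, limma adjusted p = 0.0256) and 24 h (−0.20 ± 0.06, adjusted p = 0.029). Both calls were lost when untreated replicate 2 or 3 was left out, with adjusted p between 0.0817 and 0.0968, the 12 h call also without 12 h replicate 1 or 2 and the 24 h call without 24 h replicate 2 or 3 (0.057 to 0.111). P4ha3 was lower at 6 h (−0.14 ± 0.04, adjusted p = 0.00893). P4ha1 was not called against untreated cells but was 0.16 ± 0.04 higher at 24 h than at 6 h (adjusted p = 0.00456). Serpinh1, the collagen chaperone HSP47, was not called at any time, with a 95% interval of −0.10 to 0.07 at 24 h. Pcolce, which enhances removal of the C-propeptide of procollagens, fell by 1.21-fold at 24 h: it read 12.26, 12.22 and 12.28 at 24 h against 12.51, 12.55 and 12.50 in untreated cells, with differences of −0.13 ± 0.04, −0.19 ± 0.04 and −0.27 ± 0.04 (adjusted p at 24 h = 0.000291). Its 6 h call was lost without untreated replicate 2 or 6 h replicate 1 or 2 (adjusted p between 0.067 and 0.0785).

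Between neighbouring times fewer genes were called early than late. From 6 h to 12 h 2 of the 45 genes were higher and 7 lower, where 27% of all genes were called (13.1% higher and 13.9% lower), and the largest difference among those called was that of Col11a1. Leaving out 1 array gave 1 to 4 higher and 2 to 7 lower genes in this comparison. From 12 h to 24 h 6 were higher and 11 lower, where 27.5% of all genes were called (14% higher and 13.5% lower). Nid2, Fbn2, Plod2 and Col8a1 led the rises, and Col14a1, Col11a1, Lama5 and Dcn the falls. Of the 11 genes lower at 24 h than at 12 h, Lama5, Lamc1, Loxl2 and Loxl3 had been above untreated cells at 12 h. Col11a1, Col14a1, Dcn, Lum, Fmod and Ogn had been below untreated cells at 12 h and fell further, and Col1a1 had not been called at 12 h. The step of Lum was lost without 12 h replicate 3 or 24 h replicate 2 or 3, and that of Fmod without 12 h or 24 h replicate 2 or 3 (adjusted p between 0.0581 and 0.087). The rise of Plod1 (0.13 ± 0.04, limma adjusted p = 0.0415) was lost without any 1 untreated or 12 h array. It was also lost without 6 h replicate 3 or 24 h replicate 1 or 3 (adjusted p between 0.0542 and 0.118 in these fits). With 2 groups alone it was lost too (0.112). The step of Col1a1 was lost after median centring (0.0555). From 6 h to 24 h 8 were higher and 15 lower, where 39.2% of all genes were called (19.4% higher and 19.8% lower). In the fit of genes at or above the median level, 28.6% of the matrix genes were called from 6 h to 12 h, against 52.4% of all these genes. The shares were 50% against 50.3% from 12 h to 24 h and 57.1% against 66.7% from 6 h to 24 h. Matrix genes were thus called no more often between times than genes of such levels.

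**Figure D4:**
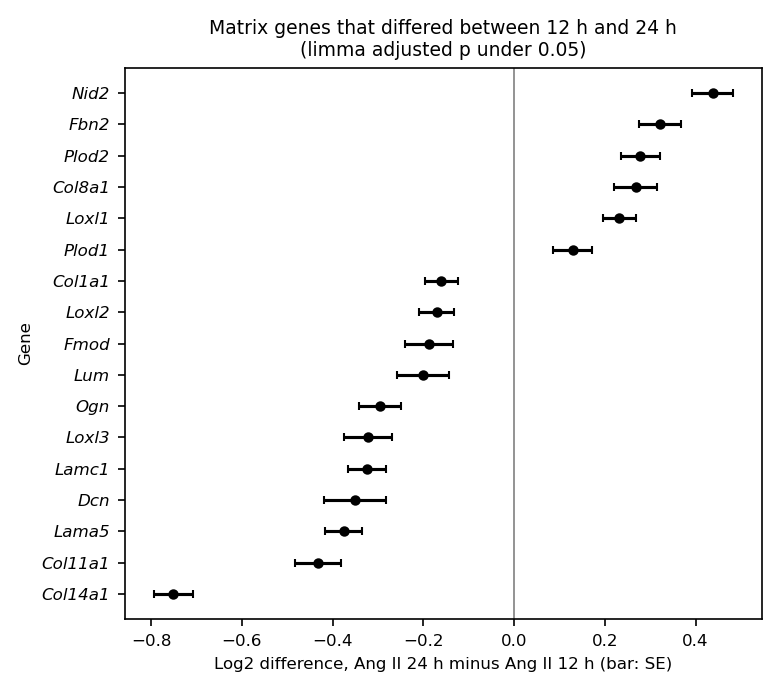
Log2 difference between Ang II 24 h and Ang II 12 h (horizontal axis, bars are the SE, n = 3 per group) for the 17 matrix genes with a limma adjusted p under 0.05. Nid2 is highest at 0.44 and Col14a1 lowest at −0.75. The calls of Plod1, Lum and Fmod are lost when certain single arrays are left out.

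The groups separated more often than they passed the test. The 3 arrays of Ang II and the 3 untreated arrays did not overlap for 29 of the 45 genes at 6 h, 32 at 12 h and 30 at 24 h, against 47.2%, 40.8% and 44.8% of all genes. Between the Ang II times 21 genes did not overlap from 6 h to 12 h, 26 from 12 h to 24 h and 32 from 6 h to 24 h, against 39.3%, 40.3% and 48.9% of all genes. With at least 1.5-fold, 0, 1 and 2 genes passed in these comparisons, against 2.82%, 2.43% and 6.49% of all genes. The 15 genes not called against untreated cells at any time were Col1a2, Col5a2, Col5a3, Col4a1, Lamb2, Col16a1, Fn1, Fbn1, Mfap4, Mfap5, Bgn, Lox, Plod1, P4ha1 and Serpinh1. Their differences from untreated cells lay between −0.11 and 0.13, and their 95% intervals reached from −0.19 to 0.28.

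Other genes of matrix assembly also moved in both directions. Of a further 70 genes for rarer collagens, laminins, processing enzymes and proteoglycans, 48 were measured: 9 were higher and 9 lower at 6 h, 9 and 8 at 12 h, and 12 and 9 at 24 h. That is 37.5%, 35.4% and 43.8% called, beside 35.8%, 26.6% and 30% of all genes, and their median difference was 0.00, −0.06 and 0.07. Tll1, a tolloid-like protease that cleaves the C-propeptide of procollagens, rose 3.35-fold at 6 h, 3.79-fold at 12 h and 2.02-fold at 24 h. Tll1 read 9.74, 9.68 and 9.78 in the untreated arrays, 11.45, 11.51 and 11.49 at 6 h, 11.62, 11.69 and 11.66 at 12 h and 10.80, 10.72 and 10.73 at 24 h. Ang II arrays at every time lie above the untreated ones (limma adjusted p = 1.43e-10 at 6 h). Loxl4, a further lysyl oxidase, rose by 1.70 ± 0.05 at 6 h, 0.99 ± 0.05 at 12 h and 0.19 ± 0.05 at 24 h, where it read 8.44, 8.38 and 8.50 against 8.24, 8.28 and 8.22 in untreated cells.

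Pxdn, whose peroxidase crosslinks collagen IV, rose by 0.35 ± 0.10, 0.65 ± 0.10 and 0.64 ± 0.10 at 6, 12 and 24 h. Of the laminin chains of epithelia, Lama3 rose at 6 h (0.47 ± 0.07) and 12 h (0.55 ± 0.07) and had −0.02 at 24 h, and Lamb3 rose at all 3 times, by 0.30 ± 0.08, 0.32 ± 0.08 and 0.48 ± 0.08 at 6, 12 and 24 h. Col10a1, a network collagen of growth cartilage, rose at 24 h (0.63 ± 0.06, limma adjusted p = 9.81e-06). In the untreated arrays Lama3 read 6.54 to 6.74, Lamb3 6.98 to 7.19 and Col10a1 7.31 to 7.39, beside array medians of 7.22 to 7.32. Without detection calls, whether untreated cells express these genes cannot be said. The falls were led by Omd, Epyc and Aspn, described with the small proteoglycans, and by Adamts3, a protease that cleaves the N-propeptide of procollagens, with −0.77 ± 0.08, −0.76 ± 0.08 and −0.92 ± 0.08 at 6, 12 and 24 h. Adamts3 read 7.21 to 7.38 in the untreated arrays, close to the array medians, and 6.28 to 6.69 in the Ang II arrays, below them. Without detection calls, whether cells given Ang II still express Adamts3 cannot be said.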

How the data were processed

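The 12 arrays are represented by log2 values as deposited; RMA and Partek are named per the submitters' processing notes. Tool versions and background correction are not stated in the sources used, so the scale is known from the values only. Of 29214 rows, 15310 had 1 gene symbol in the platform annotation. They named 14506 genes, each taken as its probe set with the highest mean, and all 45 matrix genes had a single probe set. Symbols were looked up in RefSeq gene tables of GRCr8, where 14481 genes matched by gene identifier and 0 symbols changed.

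All 12 arrays entered 1 limma fit of group means, run with limma 3.58.1 in R 4.3.3 (8 residual and 3.37 prior degrees of freedom), two-sided, with Benjamini-Hochberg adjustment over all genes in each comparison. The array number limits the precision: the median standard error of a log2 difference was 0.04 for the matrix genes. On simulated data for Ang II 24 h against untreated, with 14506 genes, 62% of 1.25-fold, 88% of 1.5-fold and 100% of 2-fold changes were recovered, with 10 unchanged genes called. Only 50 genes were changed at each fold, in the 24 h group alone, whereas 30% of all genes were called at 24 h in the data. The recovery therefore describes the simulated setting and not the matrix genes.

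The matrix genes and all lists were chosen with earlier results of these data known. Per-array values were given for the 6 largest rises and falls in each comparison with untreated cells and the 4 largest between neighbouring times, and for genes set beside them. Alternatives were a block on replicate number, fits of 2 groups alone, omission of each array, a 1.5-fold minimum, trended and robust variance, median centring, further quantile normalization, means of probe sets, and genes above the median level.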

Additional observations from a re-analysis of the deposited data

Results flagged for a closer look

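Col8a1 went opposite ways at 2 times, and the difference between these times passed the test. It was −0.20 on the log2 scale at 6 h (limma adjusted p = 0.00548) and 0.16 at 24 h (adjusted p = 0.0204) relative to untreated cells, a gain of 0.36 from 6 h to 24 h (adjusted p = 6.78e-05). The 24 h call of Col8a1 was lost without untreated replicate 1 (adjusted p = 0.0831), without 24 h replicate 1 or 3 (0.0525 and 0.054) and after a further quantile normalization (0.0541). Loxl1 was −0.12 at 12 h (adjusted p = 0.0268) and 0.11 at 24 h (adjusted p = 0.0397), a gain of 0.23 from 12 h to 24 h (adjusted p = 0.000606). Both Loxl1 calls against untreated cells were lost without any 1 untreated array (adjusted p between 0.063 and 0.0984). After a further quantile normalization the 24 h difference of Loxl1 was 0.04 (adjusted p = 0.388) and its gain from 12 h to 24 h was 0.21 (adjusted p = 0.000721). Each pair of comparisons shares its untreated arrays.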

How the results depend on the processing

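The 45 genes gave 124 calls over the 6 comparisons, and 0 turned their sign under the alternatives run. Of these calls 23 were lost with 2 groups alone, 14 with the replicate number as a block, 9 after quantile normalization, 7 after median centring and 2 with a trended and robust variance. Leaving out 1 array lost 8 to 19 calls. Means of probe sets lost 0, and the fit of genes above the median level lost 0 of 120, since 42 of the 45 genes remained. Under the replicate block the calls lost included Efemp2, Fbln5 and Loxl1 at 12 h (adjusted p = 0.0624, 0.0572 and 0.0518) and Lamc1 and Loxl1 at 24 h (0.0522 and 0.0675). Same-numbered arrays of different groups deviated together only weakly (correlations of −0.10 to 0.30 across genes), so the numbers are not taken as pairs; the replicate block called 11 higher and 13 lower genes at 6 h, 10 and 12 at 12 h and 10 and 14 at 24 h, and 3 lower from 6 h to 12 h in place of 7. With a 1.5-fold minimum the counts of higher and lower genes were 1 and 0 at 6 h, 1 and 1 at 12 h and 2 and 4 at 24 h, 0 and 0 from 6 h to 12 h, 0 and 1 from 12 h to 24 h and 0 and 2 from 6 h to 24 h, since the minimum removes small changes. From 6 h to 12 h, with 2 groups alone 1 gene was higher and 2 were lower, and 4 were higher with genes above the median level or after quantile normalization and 5 with a trended and robust variance. From 12 h to 24 h 10 genes in place of 6 were higher after median centring and with a trended and robust variance. From 6 h to 24 h 4 in place of 8 were higher with 2 groups alone. Leaving out 1 array gave 1 to 4 higher and 2 to 7 lower genes from 6 h to 12 h and 4 to 8 higher from 6 h to 24 h. From 6 h to 12 h, 4 genes were higher without 12 h replicate 1, and 1 without untreated replicate 1 or 3, any 6 h replicate, 12 h replicate 2 or 3 or 24 h replicate 2 or 3. There 2 to 4 were lower without any 1 untreated array, 6 h replicate 1 or 3, 12 h replicate 1 or 2 or 24 h replicate 3. From 6 h to 24 h, 4 were higher without 6 h replicate 3 and 5 without any 1 of the 24 h replicates. Against untreated cells leaving out 1 array gave 11 higher and 9 to 14 lower at 6 h, 10 to 11 and 11 to 15 at 12 h, and 8 to 12 and 12 to 14 at 24 h. The cause of these shifts was not tested.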

Other observations

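Of the 45 matrix genes, 11 had a mean log2 value of at least 13, where the highest value of the table is 14.6: Col1a1, Col1a2, Fn1, Eln, Fbln5, Mfap4, Bgn, Ogn, Lox, P4ha3 and Serpinh1. Of these 5 were called at 1 or more times (45.5%) and 0 with at least 1.5-fold, against 25 of the 34 other matrix genes (73.5%), 6 of them with at least 1.5-fold. Over all genes, 102 of 169 at that level were called (60.4%), 3 with at least 1.5-fold, against 7382 of 14337 below it (51.5%), 1388 with at least 1.5-fold. Within these 169 genes the differences ranged from −0.54 to 0.97. Whether the top of the scale compressed the differences of the 11 matrix genes was not tested.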
